A study of Homo sapiens with 4 samples.

Results

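The nuclear factor I genes NFIA, NFIB, NFIC and NFIX were examined in RNA-seq libraries of IMR-90, a line of fibroblasts from human fetal lung. They are the 4 rows of the count table, of 57820 gene IDs in all, whose Ensembl IDs belong to these genes, and all 4 were among the 16426 genes with enough counts to be tested. The family was picked because NFIB was about 3-fold lower in RB1 KO cells, so the difference of each member between RB1 KO and wild-type cells is given as a description, and nothing is inferred from it.

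RNA from confluent cells of 2 genotypes was compared, with 2 libraries each. The RB1 KO cells were IMR-90 cells transduced with a lentiCRISPR construct whose guide RNA targets the start of RB1 translation, and they are a pool of puromycin-resistant cells, not a clone. The wild-type cells were IMR-90 cells for which no transduced and selected control is described, so that loss of RB1 cannot be told apart from transduction, Cas9 expression and selection. Nothing in the labels says that the 2 libraries of a genotype came from separate cultures, so their spread may be technical. Between 30873239 and 34247292 reads per library were assigned to genes. The RB1 transcript was counted 2802 and 2629 times in the RB1 KO libraries, against 2545 and 2392 times in the wild-type libraries (log2 fold change 0.12, standard error 0.0723, adjusted p = 0.507 with edgeR's quasi-likelihood test). An edit at the start of translation need not lower the transcript, so this level does not check the labels. The paper checked the disruption of RB1 at the protein level, by Western blot.

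Nuclear factor I proteins are transcription factors that bind DNA as dimers of any pair of family members, through a conserved amino-terminal domain, at the palindrome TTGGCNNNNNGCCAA or at a single arm of it. They turn genes on or off depending on the promoter and cell, and they govern the late steps of differentiation in lung, brain, muscle and teeth. In mice, loss of NFIB leaves the lung immature at birth, where the factor acts in the mesenchyme as well as in the epithelium. Loss of NFIA or NFIX disturbs brain development, and loss of NFIC leaves teeth with short roots. RB1 holds back E2F transcription factors, which bind sites in the promoters of cell cycle genes.

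NFIB lies on chromosome 9 of GRCh37, from 14081842 to 14398982 on the minus strand. It had 146 counts in RB1 KO replicate 1 and 166 in replicate 2, against 498 counts in wild-type replicate 1 and 519 in replicate 2. Both RB1 KO libraries were thus below both wild-type libraries by a wide margin, and libraries of the same genotype lay close together. In CPM, counts scaled to a common library size with TMM factors, RB1 KO cells had 4.72 ± 0.384 (SD, n = 2) and wild-type cells 15.6 ± 0.954 (SD, n = 2). The fitted log2 fold change of NFIB was -1.73 (standard error 0.131), a 3.31-fold higher level in wild-type cells, with a 95% interval from -2.03 to -1.43. By fold change NFIB stood at place 56 from the lowest of all tested genes, and at place 11 among 11748 protein-coding genes whose mean reached 1 CPM. Since NFIB was picked by this fold change, a low place was given in advance. In bulk RNA, fewer cells that express NFIB and less NFIB RNA per cell cannot be told apart.

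NFIA lies on chromosome 1 from 61330931 to 61928460 on the plus strand. It had 841 and 726 counts in RB1 KO cells and 785 and 850 counts in wild-type cells, in the order of the replicates. The genotypes overlapped, since the lowest and the second highest of the 4 CPM values were both from RB1 KO libraries. RB1 KO cells had 23.7 ± 2.68 CPM (SD, n = 2) and wild-type cells 25.2 ± 2.21 CPM (SD, n = 2). For NFIA the log2 fold change was -0.09 (standard error 0.112) with a 95% interval from -0.34 to 0.17. Its direction was not stable, with values of 0.03 when RB1 KO replicate 2 was left out and 0.01 when wild-type replicate 2 was left out.

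NFIC and NFIX lie on chromosome 19 on the plus strand, NFIC from 3314401 to 3469215 and NFIX from 13106289 to 13209610. NFIC had 8943 and 10569 counts in RB1 KO cells and 11151 and 10410 in wild-type cells, and NFIX had 8015 and 8168 counts in RB1 KO cells and 8933 and 8883 in wild-type cells. In CPM both were slightly lower in both RB1 KO libraries than in both wild-type libraries. NFIC measured 272 and 318 CPM in RB1 KO cells against 335 and 327 CPM in wild-type cells, and RB1 KO replicate 1 stood lowest. NFIX measured 244 and 245 CPM against 268 and 279 CPM. The log2 fold change was -0.17 for NFIC (standard error 0.0887, 95% interval from -0.37 to 0.04) and -0.16 for NFIX (standard error 0.0688, 95% interval from -0.32 to -0.00334). These intervals are not adjusted for the number of genes tested. The adjusted p was 0.426 for NFIC and 0.316 for NFIX (edgeR), so neither passed 0.1. Without RB1 KO replicate 1 the log2 fold change of NFIC was -0.06, and without RB1 KO replicate 2 it was -0.28.

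**Figure D1:**
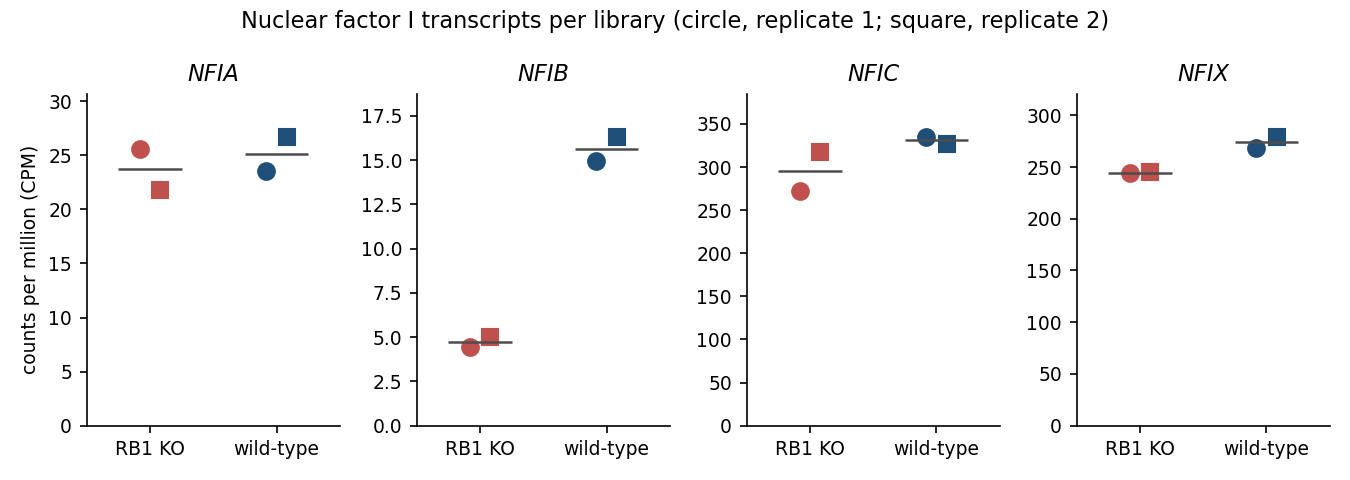
CPM of each member in each library, on linear axes that start at 0 and differ between panels. Circles are replicate 1, squares are replicate 2 and lines are the means of 2 libraries. NFIB sits at 4.45 and 4.99 CPM in RB1 KO cells and at 15.0 and 16.3 CPM in wild-type cells, while the groups of the other members lie close together or overlap.

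Of the 4 members, 1 was called lower (NFIB) and 0 were called higher at an adjusted p under 0.1 with edgeR. Over all tested genes 0.907% were called lower and 1.99% higher. In 3 members (NFIB, NFIC and NFIX) both RB1 KO values were below both wild-type values, which was so for 24.3% of all tested genes. With a block that crosses the replicate numbers, an alternative chosen after seeing the data, 3 members were called. That fit also called many more genes in all, 1612 higher and 1362 lower of the 16426 tested. Nothing is read from these counts, since NFIB was chosen by this contrast. The median log2 fold change of the members was -0.16, and that of all tested genes was -0.01.

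The size of the member differences depended on the scale against which they were set. With factors taken from the summed counts of the ERCC spike-in RNAs, the median of all tested genes moved by -0.48 on the log2 scale, and the members read -0.58 (NFIA), -2.22 (NFIB), -0.65 (NFIC) and -0.65 (NFIX). Relative to that median, NFIB stood at -1.73, NFIA at -0.09 and NFIC and NFIX at -0.16 each. ERCC counts were between 0.187% and 0.211% of the gene counts in 3 libraries and 0.135% in wild-type replicate 2. The paper's methods do not say how the spike-ins were added.

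**Figure D2:**
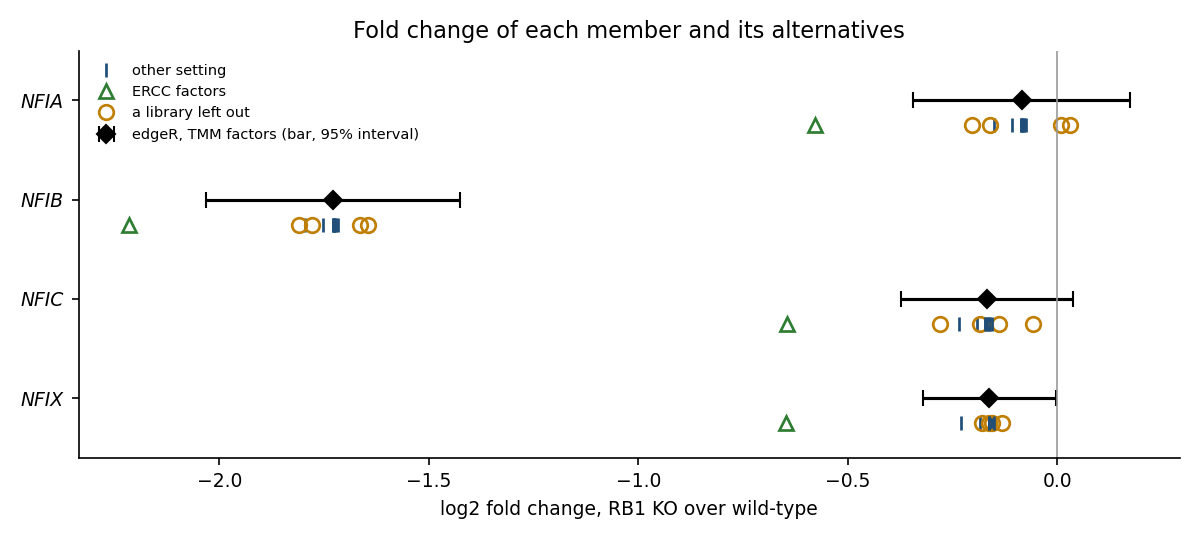
Log2 fold change of each member, RB1 KO over wild-type, from edgeR with TMM factors (diamond, with its 95% interval) and, below it, under 14 alternatives (circles, a library left out; triangle, ERCC factors; ticks, other settings). NFIB ranged from -1.81 to -1.65 over the 13 alternatives other than the ERCC factors, and the other members stayed between -0.28 and 0.03.

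To compare members with each other, CPM was divided by the length of the gene. With the merged exons of the annotation as length, NFIX was the most abundant member, at 42.2 ± 1.18 CPM per kilobase (SD, n = 2) in wild-type cells and 37.7 ± 0.152 in RB1 KO cells. NFIC followed at 33.8 ± 0.567 and 30.1 ± 3.27 CPM per kilobase in the same order. In each library NFIX was above NFIC, and the ranges of these neighbours did not overlap within a genotype. NFIB was far below both, at 1.23 ± 0.0748 CPM per kilobase in wild-type cells and 0.370 ± 0.0301 in RB1 KO cells. NFIA measured 0.423 ± 0.0372 and 0.399 ± 0.0451 CPM per kilobase.

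The order of NFIA and NFIB was not settled by these data. NFIA has very long transcripts in the current annotation, 59.4 kb of merged exons against 9.23 kb for its canonical transcript, and the reads were counted on an older annotation. Per kilobase of merged exons, NFIB was above NFIA in wild-type cells and overlapped with it in RB1 KO cells. Per kilobase of canonical transcript, NFIA was above NFIB in each library, at 2.73 ± 0.240 against 1.82 ± 0.111 CPM per kilobase in wild-type cells (SD, n = 2) and 2.57 ± 0.291 against 0.550 ± 0.0447 in RB1 KO cells. NFIX and NFIC kept their order under the 3 lengths tried (merged exons, longest and canonical transcript), whereas in CPM without a length NFIC was above NFIX in each library.

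The summed level of the family was therefore carried by NFIX and NFIC. Per kilobase of merged exons it was 66.2 and 71.0 CPM per kilobase in the RB1 KO libraries, against 77.1 and 78.2 in the wild-type libraries. NFIX made up 54.4% ± 1.01 (SD, n = 2) of it in wild-type cells and 55.1% ± 2.51 in RB1 KO cells. NFIC made up 43.5% ± 1.13 and 43.8% ± 2.59 in the same order. NFIB made up 1.58% ± 0.0816 in wild-type cells and 0.538% ± 0.0171 in RB1 KO cells, so that the member with the large relative difference held a small part of the family's RNA in either genotype.

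**Figure D3:**
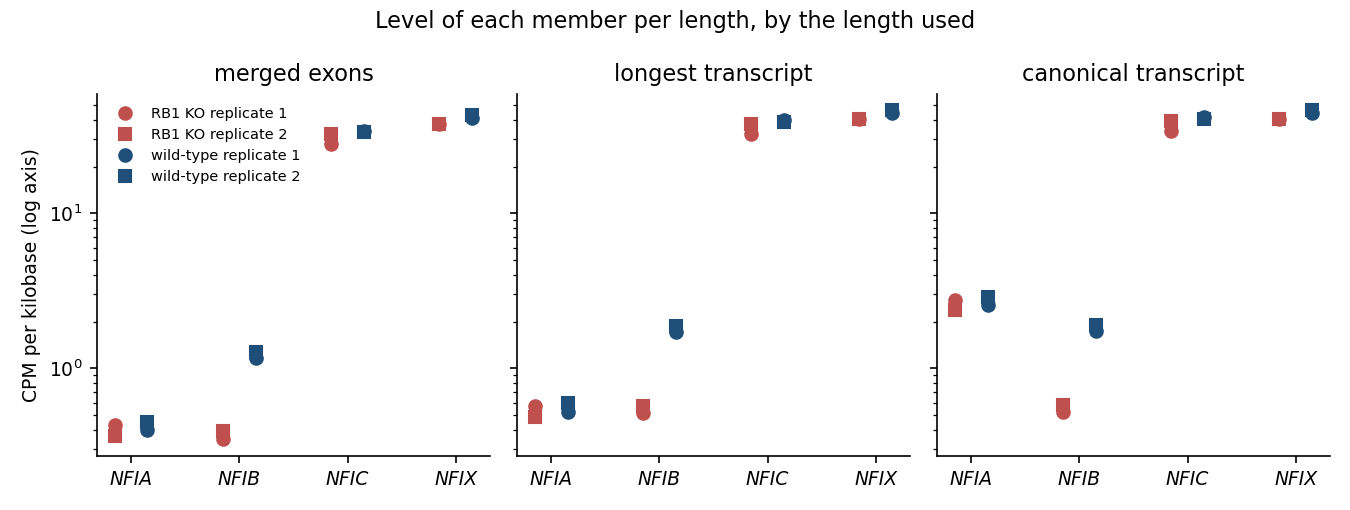
CPM per kilobase of each member on a log axis, with 3 choices of length. Circles are replicate 1 and squares are replicate 2, in red for RB1 KO and in blue for wild-type. NFIX and NFIC lie between 27.8 and 46.4 CPM per kilobase in each panel, and the place of NFIA relative to NFIB depends on the length used.

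The promoters of the members were searched for the 2 kinds of site named above. RefSeq promoter windows of 300 bases (250 before and 50 after a transcription start, GRCh38.p14) were used, 3 for NFIA, 10 for NFIB, 1 for NFIC and 5 for NFIX. The NFIC window is not the window of its canonical start, so the promoter at that start was not searched. The NFI palindrome occurred in 0 of the 19 windows, and in 0.0285% of all 35116 windows of the table. For the single arm, the string TTGGCA was searched, which is the arm TTGGC of the palindrome followed by an A. The shorter TTGGC was not searched alone, and single arm means TTGGCA from here on. It occurred, on either strand, in 3 of the 10 NFIB windows and in no window of the other members, beside 12.5% of all windows. An E2F-type site (TTTCCCGC, TTTCGCGC, TTTGCCGC or TTTGGCGC, on either strand) occurred in 1 NFIA and 1 NFIB window, beside 3.31% of all windows. The matches are shown in capitals, with 10 bases on each side, because they are the places in these windows where a family member or an E2F factor could be looked for. Positions are those of an exact match of the window to GRCh37, and each stretch is written on the strand of its gene. A match is a string of letters and not a measured binding site, and these windows leave out enhancers.
NFIA E2F-type match, at -76 bases from the canonical start (GRCh37 chr1:61548147-61548174): cggcgcgggaGCGGGAAAgggtgcgcta
NFIB E2F-type match, at 43 bases from the canonical start (GRCh37 chr9:14314080-14314107): tggtcggctcGCGGCAAAgtttcgcctg
NFIB single arm, at -2.15 kb from the canonical start (GRCh37 chr9:14316276-14316301): gctggtaaacTTGGCAagctcgcctc
NFIB single arm, at 7.13 kb from the canonical start (GRCh37 chr9:14306997-14307022): tgatttgtttTTGGCAtactacgtgc
NFIB single arm, at 13.9 kb from the canonical start (GRCh37 chr9:14300231-14300256): catgccccagTGCCAAgcatagcaag

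By the annotation, the NFIA match lies in an exon of another NFIA transcript, and the NFIB E2F-type match lies in an NFIB exon just after the canonical start. The NFIB single arm at 7.13 kb lies in an exon of another NFIB transcript, and the remaining 2 lie within the gene but outside annotated exons. Both E2F-type matches read 5′ to 3′ on the opposite strand, as does the single arm at 13.9 kb. Across the table, the 1375 tested genes with a single arm in a window had 34 called higher (2.47%) and 14 called lower (1.02%), with a median log2 fold change of -0.0031. The 11192 tested genes with any window in the table had 2.21% called higher and 0.867% called lower, with a median of -0.0055.

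The genes around each member were measured to see whether neighbours on the chromosome differed as well. Of 61 tested genes that start within 500 kb of the start of a member, 0 were called by edgeR, and 0 by DESeq2 or limma-voom, while 5 had an unadjusted p under 0.05. EdgeR called 1.99% of all tested genes higher and 0.907% lower. NFIB had 1 tested neighbour, ZDHHC21, a protein palmitoyltransferase gene whose start lies at -294 kb along the direction of NFIB. Its log2 fold change was 0.21 (standard error 0.0871), opposite in sign to that of NFIB. NFIA had 0 tested neighbours. The protein-coding neighbours of NFIC ranged from -0.27 (TLE2, a Groucho-type corepressor) to 0.61 (GIPC3), and those of NFIX from -0.31 (RNASEH2A, the catalytic subunit of RNase H2) to 0.38. The median over tested neighbours was -0.02 for NFIC and -0.03 for NFIX.

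Genes that overlap a member could lend it reads if strand was not kept in counting. Of 8 such genes, all on the opposite strand, NFIA-AS1 and 1 NFIX antisense RNA had 1 count each over the 4 libraries and the other 6, NFIB-AS1 and NFIA-AS2 among them, had 0. These counts bear only on reads that were assigned to the partner genes.

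**Figure D4:**
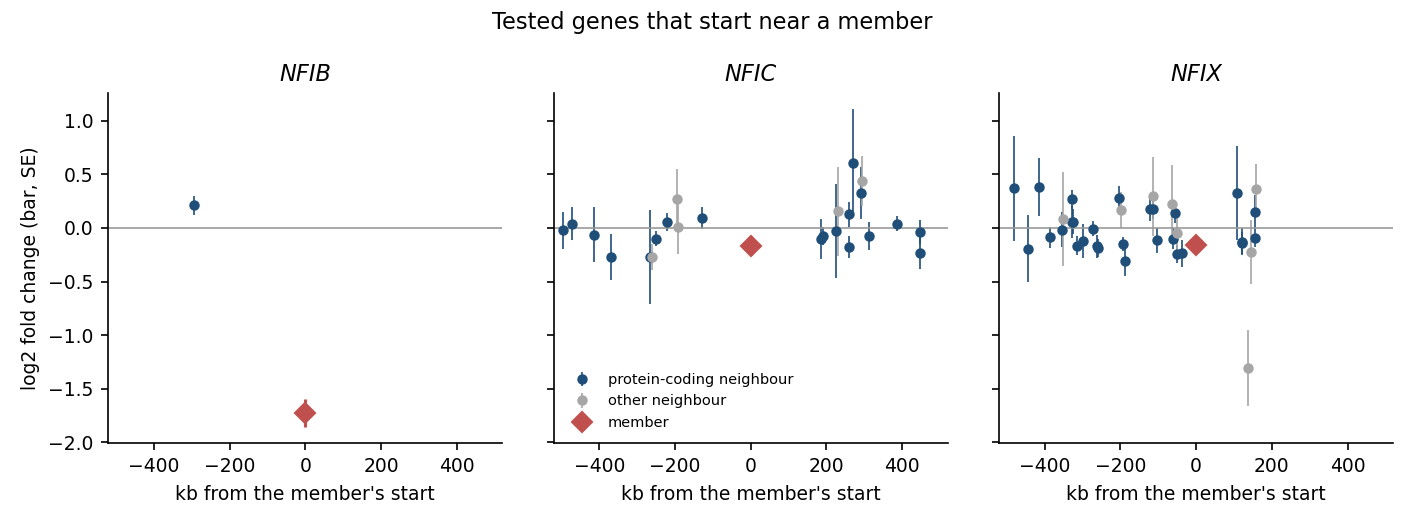
Log2 fold change (RB1 KO over wild-type, bar: standard error) of tested genes against the distance of their start from that of NFIB, NFIC or NFIX, counted along the direction of the member. The member is the red diamond. ZDHHC21 stands above 0 beside NFIB at -1.73, and the neighbours of NFIC and NFIX scatter around 0 except for 1 long noncoding RNA at -1.31 (adjusted p = 0.136, edgeR).

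The gene with the CPM pattern nearest to that of NFIB over the 4 libraries was PCDH10, a protocadherin of cell adhesion. It had 2.31 and 2.43 CPM in RB1 KO cells and 7.84 and 7.92 CPM in wild-type cells, and its centred log2 CPM differed from that of NFIB by 0.0516 (root mean square). The next were CSMD2, TMIE, HHIP and CYB5R2, at 0.0894 to 0.146. HHIP, a membrane protein that binds and restrains hedgehog ligands, was at 0.396 and 0.601 CPM in RB1 KO cells and 1.56 and 1.76 CPM in wild-type cells. These are 4 points that share their libraries and depth, and genes that differ between genotypes by a like amount must resemble each other here. The other members were no nearer to NFIB than 0.771. Most protein-coding genes whose mean reached 1 CPM were farther still: by nearness to NFIB, NFIC stood at place 1754, NFIX at 1890 and NFIA at 3766.

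Genes that earlier work in human, mouse, rat or chick cells has put under NFI control were read next, as 3 lists. Of 36 such genes, 22 were tested, 1 rose (SOX6), 1 fell (EFNB1) and 20 did not pass the test. Among all tested genes 1.99% were called higher and 0.907% lower, and nothing is read from the list counts. Their median log2 fold change was 0.08, against -0.01 over all tested genes, with 14 values above 0 and 8 below. Both calls were lost without wild-type replicate 1, with a block for the replicate number and with ERCC factors, each of which left 0 calls. Without a filter on low counts both were lost as well, and COL1A1 and COL1A2 were called in their place. DESeq2 called 5 genes (EFNB1, SOX6, COL1A1, COL1A2 and CDKN1A). Over all 14364 genes with an adjusted p, DESeq2 called 426 higher and 158 lower.

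Among 10 matrix and signaling genes, 8 were tested, and EFNB1 fell. This gene encodes ephrin-B1, a membrane ligand of Eph receptors. It measured 24.4 and 24.6 CPM in RB1 KO cells and 37.6 and 31.5 CPM in wild-type cells. Both RB1 KO values were below both wild-type values, which was so for 24.3% of all tested genes. The fall of EFNB1 was -0.50 on the log2 scale (standard error 0.104, adjusted p = 0.0725, edgeR), and the value was -0.35 without wild-type replicate 1 (adjusted p = 0.277). The type I collagen gene COL1A2 measured 14080 and 12310 CPM in RB1 KO cells and 9221 and 10090 CPM in wild-type cells. The difference of 0.45 on the log2 scale did not pass (adjusted p = 0.184, edgeR), although DESeq2 and limma-voom called it. COL1A1 stood at 0.30 and the connective tissue growth factor CCN2 at 0.29, both not past the threshold in edgeR, although DESeq2 called COL1A1.

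Among 15 muscle, bone, fat and metabolic genes, 7 were tested, and SOX6 rose. SOX6 is a transcription factor of muscle and cartilage development, which NFIX controls in mouse muscle. It measured 59.4 and 52.7 CPM in RB1 KO cells and 41.7 and 42.3 CPM in wild-type cells. The rise of SOX6 was 0.42 on the log2 scale (standard error 0.0855, adjusted p = 0.0717, edgeR), and it turned to -0.06 with ERCC factors. The cell cycle inhibitor CDKN1A, at 0.30, and the fat cell regulator PPARG, at 0.38, did not pass in edgeR, although DESeq2 called CDKN1A.

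Among 11 neural and glial genes, 7 were tested, and edgeR, DESeq2 and limma-voom each called 0, with 1 at an unadjusted p under 0.05 (EZH2, the methyltransferase of Polycomb, at -0.37). The most abundant were BBX, at 105 to 124 CPM, and SOX9, at 45.1 to 51.3 CPM. The glial genes GFAP and FABP7 had at most 0.183 CPM in any library. Among 8 proteins that bind NFI factors or induce them, 6 were tested and each tool called 0, with 1 at an unadjusted p under 0.05. The corepressor SKI, at 177 to 192 CPM, had a log2 fold change of 0.07, and the lung epithelial factor NKX2-1 was at 0 counts in each library.

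**Figure D5:**
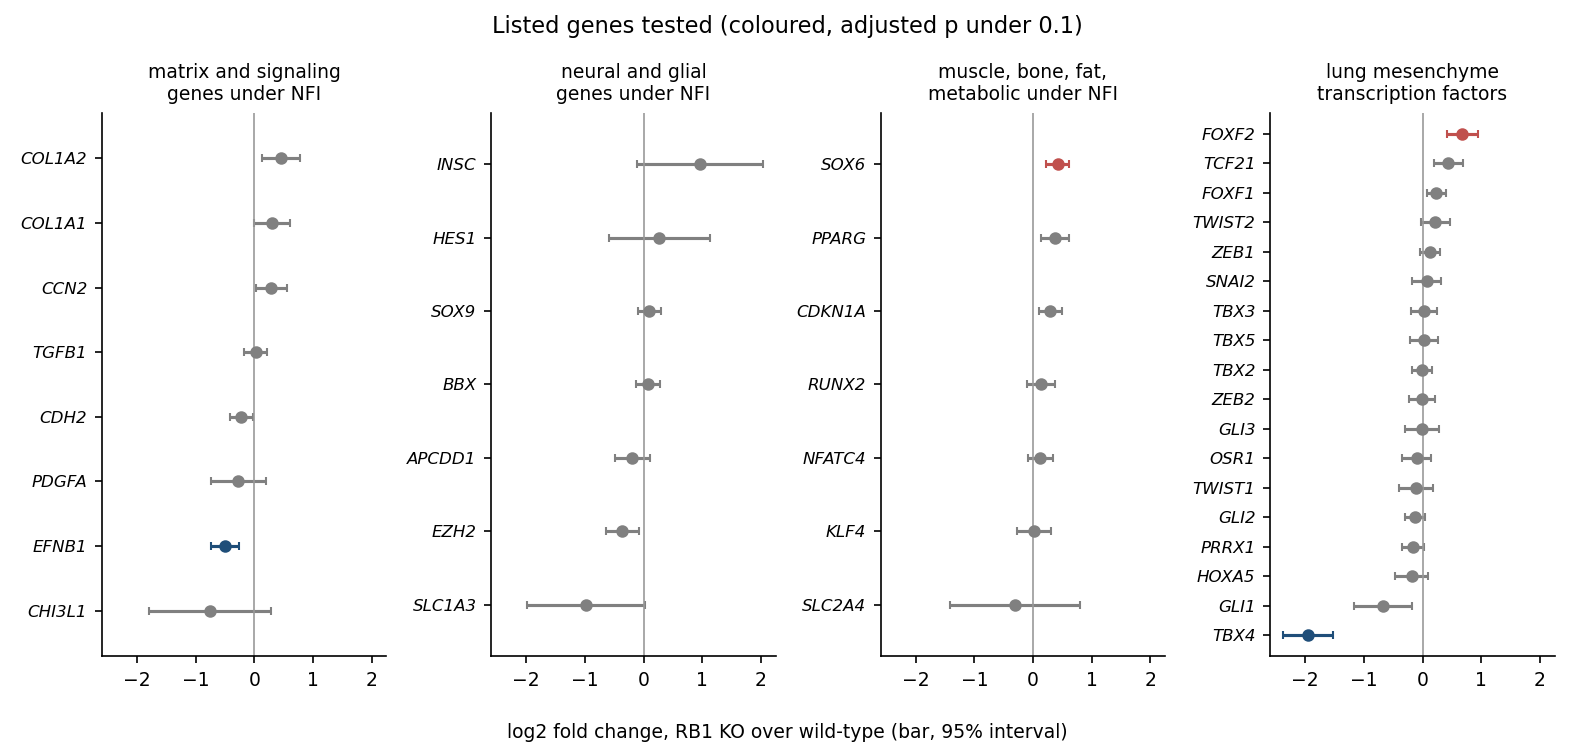
Log2 fold change (RB1 KO over wild-type, bar: 95% interval) of each tested gene of the 3 lists of genes under NFI control and of the lung mesenchyme transcription factors. Coloured points passed an adjusted p under 0.1 in edgeR: EFNB1 at -0.50, SOX6 at 0.42, FOXF2 at 0.68 and TBX4 at -1.95.

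NFIB was also set beside other transcription factors of lung mesenchyme. Of 20 listed, 18 were tested, and 16 of these did not pass in edgeR. DESeq2 called 3 (FOXF2, TBX4 and TCF21) and limma-voom 2 (FOXF2 and TBX4). Over all tested genes edgeR called 1.99% higher and 0.907% lower. DESeq2 called 426 higher and 158 lower of 14364, and limma-voom 313 higher and 132 lower of 16426. Nothing is read from the list counts. TCF21 had a log2 fold change of 0.44 (adjusted p = 0.104, edgeR). TBX4, a T-box factor of the lung and hindlimb mesenchyme, fell from 8.74 and 9.55 CPM in wild-type cells to 2.71 and 2.01 CPM in RB1 KO cells. On the log2 scale this was -1.95 (standard error 0.184, adjusted p = 0.00665, edgeR), beside -1.73 for NFIB. FOXF2, a forkhead factor of fibroblasts, rose (log2 fold change 0.68, standard error 0.112, adjusted p = 0.0353, edgeR). The call was lost with ERCC factors, where its value was 0.18. Twist, Gli and Zeb factors and TBX2, TBX3 and TBX5 did not pass, and the median of the list was -0.01.

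The cells carried fibroblast markers in each library. The summed level of 10 such genes was 42070 to 47120 CPM in RB1 KO cells and 34380 to 36280 CPM in wild-type cells. With TMM factors each of the 10 log2 fold changes was above 0, from 0.0031 to 0.68. ERCC factors moved the median of all tested genes by -0.48, so these signs hold for the TMM scale. EdgeR called 1 of the 10 markers, LUM (lumican), at 0.68. DESeq2 called 5 (LUM, DCN, PDGFRA, COL1A1 and COL1A2) and limma-voom 2 (LUM and COL1A2). Over all genes, edgeR called 1.99% higher and 0.907% lower, and DESeq2 called 426 higher and 158 lower of 14364. Limma-voom called 313 higher and 132 lower of 16426, and nothing is read from the marker counts. Epithelial markers summed to 31.9 to 40.0 CPM in RB1 KO cells and 41.3 to 53.7 CPM in wild-type cells, nearly all of it KRT8 and KRT18, with CDH1, KRT5, SFTPC and NKX2-1 at 0 in each library. The endothelial markers analysed here summed to 159 to 186 CPM in RB1 KO cells and 122 to 124 CPM in wild-type cells. Nearly all of this was TEK (180.4 and 155.0 CPM in RB1 KO cells, 120.1 and 122.5 CPM in wild-type cells), with CDH5, ERG and EMCN at 0. TEK and KDR rose (log2 fold changes of 0.47 and 1.84). TEK was not called without wild-type replicate 1 or with a block for the replicate number. KDR had only 24 counts in each wild-type library, against 107 and 68 in the RB1 KO libraries. The immune markers summed to at most 0.691 CPM in any library. Smooth muscle and pericyte markers summed to 1169 to 1418 CPM in RB1 KO cells and 897 to 1165 CPM in wild-type cells. In that list MYH11 and DES fell (log2 fold changes of -0.85 and -1.68, neither called without wild-type replicate 1) and RGS5 rose (1.38, not called by DESeq2). With ERCC factors LUM, KDR, TEK and RGS5 were not called, and TEK read -0.0139. The part of such marker differences in the level of NFIB was not tested.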

How the data were processed

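Libraries of confluent IMR-90 cells, 2 RB1 KO and 2 wild-type, were grouped by the genotype in the labels. Per the study's methods, ribosomal RNA was depleted, libraries were directional, and reads were aligned with STAR (the submitters' processing notes give version 2.7.2b) to GRCh37. The deposited values are raw counts of uniquely mapped reads over GENCODE v19 genes, as STAR wrote them for the authors. Which of STAR's strand columns was kept is not given in the sources used here. Reads that map to more than 1 place were left out. Positions, lengths and gene names came from GENCODE v44 mapped to GRCh37, which holds 55538 of the 57820 gene IDs. In the main fit neither library sizes nor tests used the 92 ERCC, 7 SIRV and 4 summary lines. The alternative with ERCC factors took its scaling from the summed ERCC counts. Of all reads in the table, reads outside genes made up 12.96% to 15.56%, unmapped reads 8.03% to 9.03% and ambiguous reads 2.06% to 2.17%. The summary line for reads that map to more than 1 place was 0 in each library, so the unmapped share may include such reads.

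The test was edgeR's quasi-likelihood F test (version 4.0.16, R 4.3.3, TMM factors) on genotype. Genes were kept by filterByExpr (minimum count 10, minimum total 15). P-values of the 16426 genes kept were adjusted by Benjamini-Hochberg, and a gene was called when this fell under 0.1. The biological coefficient of variation was 0.0867. A standard error is the absolute log2 fold change divided by the root of F. The alternatives were DESeq2 1.42.0, limma-voom (limma 3.58.1), other scaling factors, other filters, a threshold of 0.05, a block for the replicate number and leaving out each library. The canonical transcript as length and a crossed block were chosen after seeing the data. The fitting steps were tested on simulated data.

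The members and the gene lists were chosen with earlier results of these data known. The rule for named genes takes RB1, the members, their tested neighbours within 500 kb, the passing genes of each NFI list or else its 2 most abundant, and the 5 protein-coding genes of at least 1 CPM whose log2 CPM pattern (pseudocount 0.1) is nearest to that of a member. Of 61 neighbours only those at the ends of a range are named, and the nearest genes are given for NFIB. Other genes of the lists (COL1A1, COL1A2, CCN2, CDKN1A, PPARG, EZH2, GFAP, FABP7 and the listed lung factors and markers) were named after their values were seen. PECAM1 of the endothelial list was not analysed here, and 1 gene of the partner list is not reported by name.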

Additional observations from a re-analysis of the deposited data

How the results depend on the processing

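NFIB was called lower under each alternative run, and it was the only member called except with the crossed block. Its log2 fold change ranged from -2.22 (ERCC factors) to -1.65 (without RB1 KO replicate 1). Since the family was chosen by this contrast, that is a description and no test. The value of NFIA changed sign when RB1 KO replicate 2 or wild-type replicate 2 was left out. The cause was not tested.

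The counts over all tested genes moved more. Main counts were 327 higher and 149 lower. They were 11 higher with ERCC factors, 326 lower with library totals only, 90 lower without a filter, and 157 higher and 65 lower at an adjusted p under 0.05. Leaving out 1 library gave 186 to 770 genes called higher and 69 to 661 called lower. Of the genes under NFI control 2 were called, against 1 with library totals only, 0 with ERCC factors, 0 at an adjusted p under 0.05, 5 with DESeq2 and 0 to 5 with a library left out. Among neighbours of the members the count was 0 to 4 with a library left out (3 without RB1 KO replicate 1 and 4 without RB1 KO replicate 2). Both fits without an RB1 KO library also called more genes over all tested genes than the main fit, both higher and lower. Nothing is read from these neighbour counts. SOX6 reversed with ERCC factors, at -0.064.

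With the replicate number as a block, 152 genes were called higher, 74 lower and 0 of the genes under NFI control, and the log2 fold change of NFIB was -1.73. Deviations of same-numbered libraries correlated at -0.2, so the numbers were not taken to pair the libraries. A crossed block, chosen after seeing the data, called 1612 genes higher, 1362 lower, 3 of the members (NFIB, NFIC and NFIX) and 10 of the genes under NFI control.

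Levels per kilobase in wild-type cells rose with a shorter length. With the longest and the canonical transcript they were 0.560 and 2.73 for NFIA, 1.80 and 1.82 for NFIB, 39.4 and 41.2 for NFIC, and 45.5 with either for NFIX. The share of NFIB in the family was 2.06% (longest transcript), 1.997% (canonical transcript) and 2.42% (no length) in wild-type cells and 0.706%, 0.683% and 0.830% in RB1 KO cells.

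The difference of NFIC between genotypes is smaller than the gap between its RB1 KO libraries. Lengths rest on an annotation later than the one used for counting.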
